A study of Mus musculus with 2 samples.

Results

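The 48 genes described here encode proteins of the nucleolus and of ribosome assembly. They were chosen by gene symbol, with no measured value in the rule, but with earlier results of these data known. Each of the 48 has a row among the 19294 gene symbols of the Drop-seq count matrix. Their unique molecular identifiers (UMIs, each counting 1 captured transcript) were summed and read singly across the 3 epithelial subclusters and the 4 clusters to which the study assigned its cells.

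The nucleolus is where RNA polymerase I transcribes the ribosomal RNA genes and where the transcript is cut, modified and folded with ribosomal proteins into the small and the large subunit. Small nucleolar RNAs (snoRNAs) of the box C/D class guide methylation of ribosomal RNA and those of the box H/ACA class guide pseudouridine formation, each inside a particle with its own set of proteins. In the crypts of the colon, where transit amplifying cells divide rapidly, ribosome production is generally high in growing cells and falls as cells differentiate.

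The cells came from colon crypts of C57BL/6 mice of the genotype Tcf4 GfpCre/+ RosamTmG/+, aged 4 to 10 months, which received no pretreatment. The 2 deposited samples pool the material numbered 1 to 3 and 4 to 6, under the same label, Tcf4 Lin-/Tcf4 DP: Tcf4 Lin- cells are those in which Cre, driven from 1 Tcf4 allele, has not switched the reporter from Tomato to GFP, and the DP (MIX) cells carry both colors. All animals therefore lacked 1 intact Tcf4 allele, no animal without the Cre allele was sequenced, and the sorted cells were mixed with human cells before Drop-seq. The matrix holds both samples as barcode sets X1 and X2, which neither the labels nor the methods assign to a pool or sort, so all cells form 1 sample without replicates, no test was possible, and every interval covers counting error only.

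The study's assignment list places 106 cells in the subclusters called stem cells (32 cells, 69046 UMIs), secretory precursors (32 cells, 128664 UMIs) and absorptive precursors (42 cells, 151780 UMIs) by a separate clustering of the epithelial cells. The study gave the first its name from several genes, of which Nop56 and Nop58 are members here, so for both a higher level there is in part how the subcluster was named. It listed these genes as examples, and it also plotted Ncl, a further member, on a trajectory of the epithelial cells. A second list places 516 cells in 4 clusters: 93 Epithelial Pigr+ cells (Pigr is a receptor that carries immunoglobulins across epithelium), 190 natural intraepithelial lymphocytes (nIELs), 186 induced ones (iIELs) and 47 B cells. All 8 epithelial markers were detected in each subcluster, and the summed T cell markers (9 genes) gave 2, 12 and 29 UMIs in stem cells, secretory and absorptive precursors, with Cd3d, Cd3e and Cd3g at 0 in stem cells, and the 6 B cell markers 12, 8 and 34 UMIs. The stem cell subcluster held 3 UMIs of Lgr5 and 25 UMIs over 5 markers of crypt base columnar stem cells, or 362 CPM (UMIs per 1000000 UMIs of the group), against 109 and 85.7 CPM in the precursors. It also held the 5 goblet markers at 18611 CPM, against 61120 CPM in secretory and 4447 CPM in absorptive precursors. The lists do not fully match: 11 of the 106 cells are labelled iIELs and 3 nIELs in the list of all cells. All 106 held a UMI of Pigr, against 7 of 362 IELs in no subcluster and 0 of 47 B cells. For its trajectory the study kept only cells that expressed Pigr and lacked T cell markers. Whether this filter also chose the subcluster cells is not stated. If it did, the Pigr and T cell marker counts of these cells were partly set by selection and are not independent evidence of identity. No barcode occurs in both sets.

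Since the subclusters were made from the expression of these same cells, the differences below describe them and do not test them. To show what several of these genes also carry, the snoRNAs within their bounds were read from GENCODE M21 on GRCm38, the mouse build of the deposited counts. Of the 48 members, 7 (14.6%) hold an annotated snoRNA on their own strand, 21 snoRNAs in all (1 of them, in Nop56, overlaps an exon), against 1.598% of the 13333 protein-coding genes with a row and 2.62% of those with at least 10 UMIs in the subclusters. The hosts are Nop56, Nop58, Dkc1, Ncl, Gnl3, Wdr43 and Tsr1. A box C/D snoRNA is shown from each of 4 of them, 5′ to 3′ in DNA letters, with the C box (TGATGA) and the D box (CTGA) in capitals. These lie in introns of the host at chr2:130275506-130275573 (plus strand), chr1:59704790-59704873 (plus strand), chr1:86356261-86356330 (minus strand) and chr17:71631281-71631365 (plus strand).
Snord110 in Nop56: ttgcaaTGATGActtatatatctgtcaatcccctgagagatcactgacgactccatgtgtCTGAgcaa
Snord11 in Nop58: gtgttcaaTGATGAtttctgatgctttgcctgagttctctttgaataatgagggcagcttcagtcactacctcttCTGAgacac
Snord82 in Ncl: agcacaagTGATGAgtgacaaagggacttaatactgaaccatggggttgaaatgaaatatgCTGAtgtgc
Snord92 in Wdr43: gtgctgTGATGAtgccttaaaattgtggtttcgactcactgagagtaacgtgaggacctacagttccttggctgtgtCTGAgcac

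Drop-seq reads the 3′ end of polyadenylated RNA, so the values below are those of the host messengers and not of the snoRNAs. The 7 hosts summed to 4939 CPM in stem cells and to 1337 and 1515 CPM in the secretory and the absorptive precursors. In stem cells it was 3.45-fold that of the other epithelial cells (95% counting interval 2.97 to 3.99), and 3.00-fold (2.41 to 3.71) without Ncl. The other 41 members were at 4142, 2301 and 2510 CPM, a fold of 1.72 (1.49 to 1.97) in stem cells. These sums were not split by barcode set, and their intervals do not cover the spread between sets. Of the hosts, only Wdr43 had a higher fold in X2 than in X1, at 2.47 in X1 and 3.30 in X2. The fold of Ncl was 6.04 in X1 and 2.05 in X2, and that of Nop56 7.61 and 3.30. Nop58 was at 3.16 and 1.38, Dkc1 at 4.53 and 1.80, Gnl3 at 4.53 and 3.30, and Tsr1 at 0.647 and 0.220. The fold of all members summed was 3.13 in X1 and 1.502 in X2.

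The summed level of the 48 genes was highest in the stem cell subcluster. Stem cells held 627 member UMIs, or 9081 CPM (8384 to 9820), secretory precursors 468 UMIs, or 3637 CPM (3315 to 3982), and absorptive precursors 611 UMIs, or 4026 CPM (3713 to 4358). The fold of stem cells over all other epithelial cells was 2.36 (2.14 to 2.61), while the precursors differed little from each other, with a ratio of secretory over absorptive of 0.904 (0.799 to 1.02). The 409 lymphocytes outside the subclusters lay between them at 4987 CPM (4794 to 5186), so that stem cells stood 1.82-fold above lymphocytes (1.67 to 1.99) and both kinds of precursor below, at 0.729 (0.659 to 0.805) and 0.807 (0.738 to 0.882).

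The difference was seen in most single cells. The share of a cell's UMIs that fell on the members had a median of 0.970% in stem cells (lowest 0.301%, highest 2.12%), 0.308% in secretory precursors (0 to 1.07%) and 0.370% in absorptive precursors (0 to 0.957%). Each barcode was taken as 1 cell here. Joining barcodes 1 base apart, which may come from 1 bead, leaves 92 of the 106, and counts of cells were not repeated after joining. In 30 of the 32 stem cells the share lay above the median of secretory precursors, and in 30 above that of absorptive precursors. Of the precursors, 1 of 32 secretory and 0 of 42 absorptive cells lay above the stem cell median. Every stem cell held a member UMI, while 2 cells in each precursor group held none. Stem cells were shallower, with a median of 995.5 UMIs against 1820.5 and 1939.5. With each cell thinned to 800 UMIs, which left 23, 29 and 36 cells, the mean number of members detected was 5.18, 2.60 and 2.67. Without thinning, these cells showed 10.2, 8.52 and 7.89 members.

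**Figure D1:**
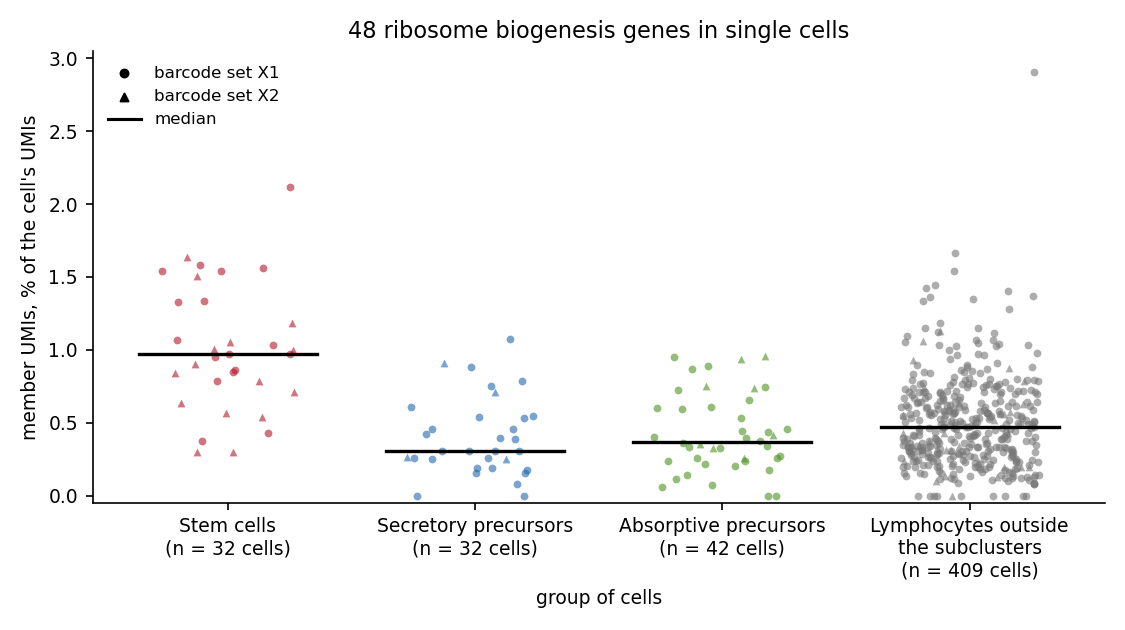
Share of each cell's UMIs that fell on the 48 members (y axis, percent) in the 3 epithelial subclusters and in the lymphocytes outside them; circles are cells of barcode set X1, triangles of X2, and bars are medians. The stem cell median of 0.970% lies above all but 1 of the precursor cells.

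One very deep barcode and the barcode sets move this value. A stem cell with 23205 UMIs, which the list of all cells labels iIEL although it holds 554 UMIs of epithelial markers and 0 of T and B cell markers, carried 148 of the 627 member UMIs (23.6%) and 33.6% of the subcluster's UMIs. Its own member level was 6378 CPM, and that of the other 31 stem cells together 10449 CPM. In set X1 the summed fold of stem cells was 3.13 (2.72 to 3.58), from 11133 CPM in 17 cells against 3356 and 3737 CPM in the precursors. In set X2 it was 1.502 (1.27 to 1.78), from 7865 CPM in 15 cells against 4982 and 5457 CPM in only 4 and 8 cells, and 2.05 without barcodes over 10000 UMIs, a setting chosen after seeing the data. Stem cells were higher in both sets, but the fold reached 2 in X1 alone and not in X2 alone. In a partition of the 106 cells made after leaving out 162 genes, the members among them, 93 cells (87.7%) fell in the matching group, and the group matched to stem cells held 8478 CPM (7801 to 9197) against 4041 and 3968 CPM.

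**Figure D2:**
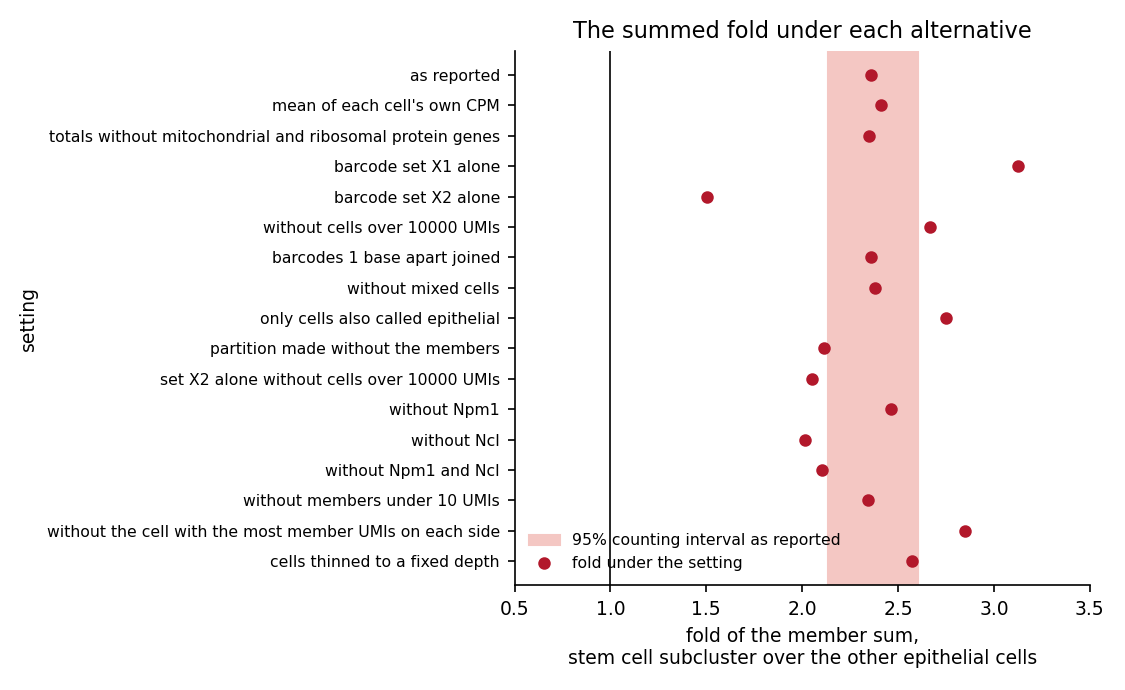
Fold of the summed members in the stem cell subcluster over the other epithelial cells (x axis) under each processing setting (y axis); the band is the 95% counting interval of the reported value, 2.14 to 2.61. The values run from 1.502 in barcode set X2 to 3.13 in set X1, all above 1.

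Read singly, the members more often stood at least 2-fold higher in stem cells than genes at large. Of the 32 members with at least 10 UMIs over the subclusters, 17 (53.1%) were at least 2-fold higher in stem cells, against 18% of the 5325 genes with that many UMIs, and 3 were at least 2-fold lower, against 15.8%. Their median fold was 2.03, beside 1.02 over all these genes, and 26 of the 32 lay above 1. Without barcodes over 10000 UMIs it was 13 of 27 (all genes 17.4%), in the partition made without the members 12 of 32 (16%), and with no minimum 26 of 48 (20.7%). In set X1 13 of 26 members reached 2-fold (20.5%), and in set X2 6 of 18 (14.5%). Among the 24 members with at least 20 UMIs, the counting interval lay above 1 for 11 and below 1 for 1, against 11.4% and 11.4% of the 3013 genes with that many UMIs. In secretory precursors 1 member was at least 2-fold higher (all genes 11%) and 8 were lower (22%). In absorptive precursors 2 were higher (14.7%) and 5 lower (15.6%).

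**Figure D3:**
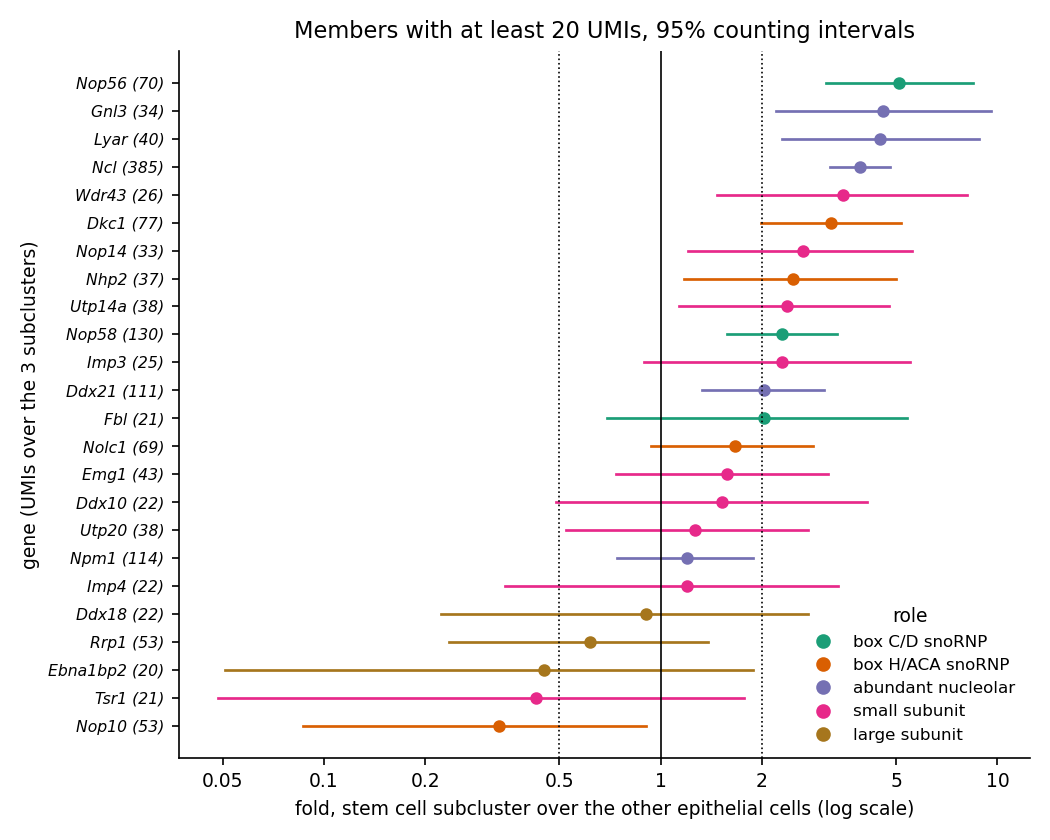
Fold of each member with at least 20 UMIs in the stem cell subcluster over the other epithelial cells (x axis, log scale) with 95% counting intervals; the number after each gene is its UMIs over the 3 subclusters and colors give its role. From Nop56 at 5.11, 13 genes lie at 2-fold or more, and Nop10, Tsr1 and Ebna1bp2 between 0.332 and 0.451.

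Members of the box C/D particle were higher in stem cells, all 3 of them at least 2-fold (all genes 18%). Together they were at 1347, 490 and 428 CPM (stem cells, secretory and absorptive precursors), a fold of 2.95 (2.23 to 3.88) in stem cells. Taken alone, X1 gave 4.25 and X2 1.65. Nop56, a core protein of the particle (chr2:130274367-130279313), gave 39, 16 and 15 UMIs in stem cells, secretory and absorptive precursors, or 565, 124 and 98.8 CPM. Its fold of 5.11 (3.11 to 8.47) is the largest among members with at least 20 UMIs, and 18 of 32 stem cells held a UMI of it, against 11 of 32 and 13 of 42 precursor cells. Nop58, the partner of Nop56 (chr1:59684961-59711510), gave 47, 42 and 41 UMIs, or 681, 326 and 270 CPM. Here the highest single barcode was an absorptive precursor with 17 UMIs, and the fold in stem cells was 2.30 (1.57 to 3.33), but 1.38 in set X2 and 4.21 as a mean over cells. Fbl encodes fibrillarin, the methyltransferase of the particle, and gave 7, 5 and 9 UMIs, or 101, 38.9 and 59.3 CPM. Its interval, 0.694 to 5.38 around 2.03, holds 1, and in barcode set X2 alone the fold was 0.918.

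The box H/ACA proteins were divided. Their sum of 1086, 560 and 632 CPM was 1.81-fold higher in stem cells (1.36 to 2.39), and 1.29-fold in set X2. Dkc1 (dyskerin, the pseudouridine synthase) gave 34, 14 and 29 UMIs, or 492, 109 and 191 CPM, and a fold of 3.21 (1.99 to 5.16), which was 1.80 in set X2. Nhp2, a core protein of the same particle, followed with 14, 12 and 11 UMIs, or 203, 93.3 and 72.5 CPM, and a fold of 2.47 (1.18 to 5.01). Both were higher in stem cells, but Nop10, the smallest core protein, went the other way. It gave 4, 23 and 26 UMIs, or 57.9, 179 and 171 CPM, and all 4 of its stem cell UMIs came from 1 barcode, while 11 secretory and 16 absorptive cells held it. The Nop10 fold of 0.332 (0.0869 to 0.904) is the only one among the 24 members whose interval lies below 1. Nolc1, a chaperone of these particles, was at 290, 155 and 191 CPM from 20, 20 and 29 UMIs, with a fold of 1.66 (0.933 to 2.84). Gar1, also of the core, had 7 UMIs in all.

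The 6 abundant nucleolar proteins made up the largest part of the sum. They were at 4316 CPM in stem cells and 1352 and 1496 CPM in the precursors, a fold of 3.02 (2.59 to 3.52). Of the 4316 CPM, 2737 CPM were Ncl, and the group's fold without Ncl was not computed. The group is named for its proteins and not for UMIs, which were few for some of its genes. The sets gave 4.24 (X1) and 1.91 (X2). Ncl encodes nucleolin, an RNA-binding protein that acts from transcription of ribosomal RNA to its processing (chr1:86344719-86359455). It gave 189, 74 and 122 UMIs, or 2737, 575 and 804 CPM, and was found in 28 of 32 stem cells, 19 of 32 secretory and 28 of 42 absorptive cells. Its fold was 3.92 (3.19 to 4.81), with 6.04 in set X1 and 2.05 in set X2, both outside that interval. It took 30.1% of all member UMIs in stem cells and 18.2% in the other epithelial cells. Without Ncl, the fold of the sum was 2.01. Npm1 (nucleophosmin, a histone and ribosome chaperone) stood apart from it, with 26, 39 and 49 UMIs, or 377, 303 and 323 CPM. Its fold of 1.2 has an interval of 0.743 to 1.88, so a difference was not detectable at this depth. Npm1 has processed pseudogene copies in the genome, and how reads shared with them were counted is not given in the sources used here.

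Gnl3 (nucleostemin, a nucleolar GTPase first known from stem cells) gave 18, 6 and 10 UMIs, or 261, 46.6 and 65.9 CPM, and was found in 12 stem, 5 secretory and 4 absorptive cells. Its fold was 4.57 (2.20 to 9.58). Lyar, a nucleolar zinc finger protein, was almost as far apart, at 4.49 (2.30 to 8.83), from 21, 4 and 15 UMIs, or 304, 31.1 and 98.8 CPM, and at 2.20 in set X2. Of the helicase Ddx21, which acts on transcription and processing of ribosomal RNA, 37, 46 and 28 UMIs were counted, or 536, 358 and 184 CPM. Ddx21 was thus higher in secretory than in absorptive precursors, and its stem cell fold was 2.03 (1.33 to 3.05), with 3.38 in set X1 and 1.10 in set X2. Mybbp1a, with 15 UMIs in all, lay at 3.55 (1.10 to 11.2).

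**Figure D4:**
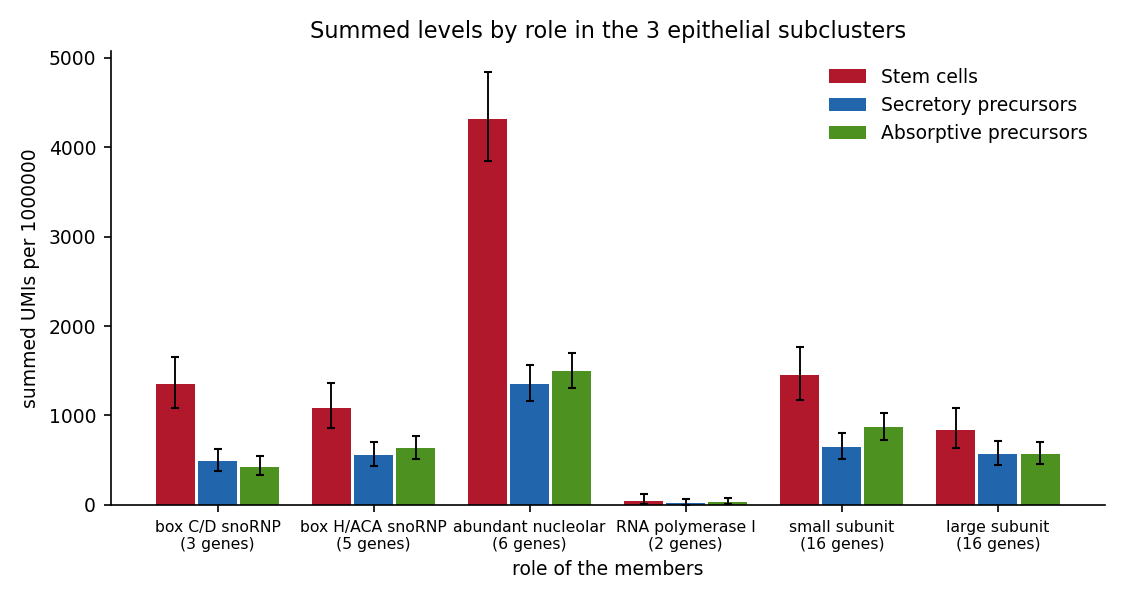
Summed UMIs per 1000000 (y axis) of the members by role (x axis) in the 3 epithelial subclusters, with exact Poisson 95% intervals. The abundant nucleolar proteins show the widest gap, 4316 CPM in stem cells against 1352 and 1496 CPM, most of it from Ncl. RNA polymerase I shows the lowest level.

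Both members of RNA polymerase I, Polr1a and Polr1b, were too sparse to compare, with 3, 3 and 5 UMIs together. The 16 factors of the small subunit were at 1448, 645 and 870 CPM, 1.89-fold higher in stem cells (1.48 to 2.41). Of the 10 with at least 10 UMIs, 5 were at least 2-fold higher, against 18% of all genes. Wdr43, a component of the complex that first binds the ribosomal RNA precursor, gave 12, 7 and 7 UMIs, or 174, 54.4 and 46.1 CPM, with a fold of 3.48 (1.47 to 8.11). Nop14, a scaffold of the same early particle, gave 13, 7 and 13 UMIs, or 188, 54.4 and 85.7 CPM, with a fold of 2.64 (1.21 to 5.58). Utp14a, which activates a helicase of the particle, was at 203, 69.95 and 98.8 CPM from 14, 9 and 15 UMIs, with a fold of 2.37 (1.13 to 4.77). These 3 have intervals above 1, and each was highest in stem cells.

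The other small subunit factors with at least 20 UMIs have intervals that hold 1. Imp3, which joins the U3 snoRNA to the ribosomal RNA precursor, lay at 2.28 in stem cells (0.890 to 5.49), from 130, 31.1 and 79.1 CPM, but at 0.787 in set X2. Its partner Imp4 lay at 1.19 (0.345 to 3.37), from 72.4, 38.9 and 79.1 CPM. Emg1, a methyltransferase, lay at 1.57 (0.735 to 3.15), from 174, 93.3 and 125 CPM. Ddx10, a helicase, was at 86.9, 46.6 and 65.9 CPM, a fold of 1.52 (0.488 to 4.10). Its sets were opposite, with 0 UMIs in stem cells and 16 in the other epithelial cells in X1, and 6 and 0 in X2. Utp20, a large scaffold of the early particle, was lowest in secretory precursors: 9, 6 and 23 UMIs, or 130, 46.6 and 152 CPM, with a stem cell fold of 1.26 (0.525 to 2.74). Tsr1, an assembly factor of the cytoplasmic steps, was highest in secretory precursors, at 29.0, 101 and 39.5 CPM from 2, 13 and 6 UMIs, with a stem cell fold of 0.428 (0.0483 to 1.77).

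Large subunit factors differed least. Their sum of 840, 567 and 567 CPM was 1.48-fold higher in stem cells (1.077 to 2.01), but the direction turned in set X2, where the fold was 0.832, against 1.91 in X1. Of the 9 with at least 10 UMIs, 2 (22.2%, all genes 18%) were at least 2-fold higher, Wdr12 and Pes1. They belong to the same complex (with Bop1), which acts in processing of large subunit RNA. Wdr12 gave 8, 5 and 1 UMIs and Pes1 8, 5 and 5, so the folds of 5.42 (1.65 to 18.9) and 3.25 (1.11 to 9.14) rest on few UMIs. The 3 large subunit factors with at least 20 UMIs lay at or below the other cells. Rrp1 was at 101, 187 and 145 CPM from 7, 24 and 22 UMIs, a fold of 0.618 (0.235 to 1.38). Ddx18, a helicase, was at 57.9, 54.4 and 72.5 CPM, a fold of 0.903 (0.222 to 2.74). In X1 it had 0 UMIs in stem cells and 16 in the others, and in X2 its fold was 2.20 (0.316 to 24.4). Ebna1bp2 was highest in absorptive precursors, at 29.0, 38.9 and 85.7 CPM from 2, 5 and 13 UMIs, of which 7 came from 1 barcode, and its fold of 0.451 has an interval of 0.0508 to 1.89. In set X1 alone it was 1.29.

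The 8 members with 10 to 18 UMIs had stem cell folds between 0.812 and 5.42, of which 4 reached 2 (Mybbp1a, Wdr75, Wdr12 and Pes1). The other 4 are Nop2, Nop16, Gnl2 and Mrto4. The 16 members under 10 UMIs, with 1 to 9 each, are Gar1, Polr1a, Polr1b, Rrp9, Rrp12, Noc4l, Rcl1, Nob1, Bysl, Bop1, Rrp1b, Rrp15, Noc2l, Noc3l, Nip7 and Nle1. They were read only as a sum, which was 521, 202 and 191 CPM, a fold of 2.66 (1.70 to 4.12) in stem cells.

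Ribosomal protein genes did not follow the members. The 81 cytosolic ribosomal protein genes took 10.5%, 10.4% and 13.0% of UMIs, a fold of 0.887 (0.865 to 0.910) in stem cells. Of them, 1 (Rpsa) was at least 2-fold higher there (all genes 18%) and 10 (12.3%) were lower (all genes 15.8%). Lymphocytes outside the subclusters held more of them, the fold of stem cells over lymphocytes being 0.511, whereas the members were higher in stem cells. Mitochondrial genes took 6.53%, 4.91% and 6.21% of UMIs.

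Among 92 other genes of ribosome assembly, the difference was smaller. The list was at 6503, 4314 and 4843 CPM, a fold of 1.41 in stem cells (1.27 to 1.58), and 13 of its 58 genes with at least 10 UMIs (22.4%) were at least 2-fold higher, near the 18% of all genes, and 4 (6.90%) lower, against 15.8%. The small subunit genes of this list were 1.32-fold (1.07 to 1.62), the large subunit genes 1.39-fold (1.19 to 1.61) and those of RNA polymerase I transcription 1.68-fold higher (1.29 to 2.17). Taf1d, of the factor that places the polymerase on its promoter, led with 42, 22 and 26 UMIs, or 608, 171 and 171 CPM, a fold of 3.55 (2.29 to 5.49). Tcof1 (treacle, which acts in transcription of ribosomal DNA) lay at 2.71 (1.19 to 5.94), the large subunit helicase Ddx27 at 4.06 (1.85 to 8.92), Pelp1 at 3.48 (1.47 to 8.11) and Pdcd11 at 2.90 (1.15 to 7.02). Pak1ip1 lay at 2.13, with an interval of 0.926 to 4.62. Sbds, which acts in the last cytoplasmic step of the large subunit, was lower in stem cells, with 2, 17 and 26 UMIs and a fold of 0.189 (0.0222 to 0.725).

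The non-coding hosts of snoRNAs were nearer to the members. The 9 genes were at 1637, 832 and 817 CPM, a fold of 1.99 (1.57 to 2.499) in stem cells. Of the 9, 5 were at least 2-fold higher, against 18% of all genes. Gas5 gave 56, 50 and 58 UMIs, a fold of 2.11 (1.497 to 2.93), and Snhg3 2.98 (1.24 to 6.94). Snhg4 was at 0.451 (0.0508 to 1.89). The 13 genes of the exosome, which trims ribosomal RNA ends, were at 478, 358 and 474 CPM, a fold of 1.136 (0.748 to 1.68). Of the 10 with at least 10 UMIs, 4 were at least 2-fold higher (all genes 18%) and 2 lower (15.8%). Each of the 4 had 4 UMIs in stem cells and an interval that holds 1. C1d, a cofactor of the exosome, lay at 0.185 (0.00447 to 1.142).

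**Figure D5:**
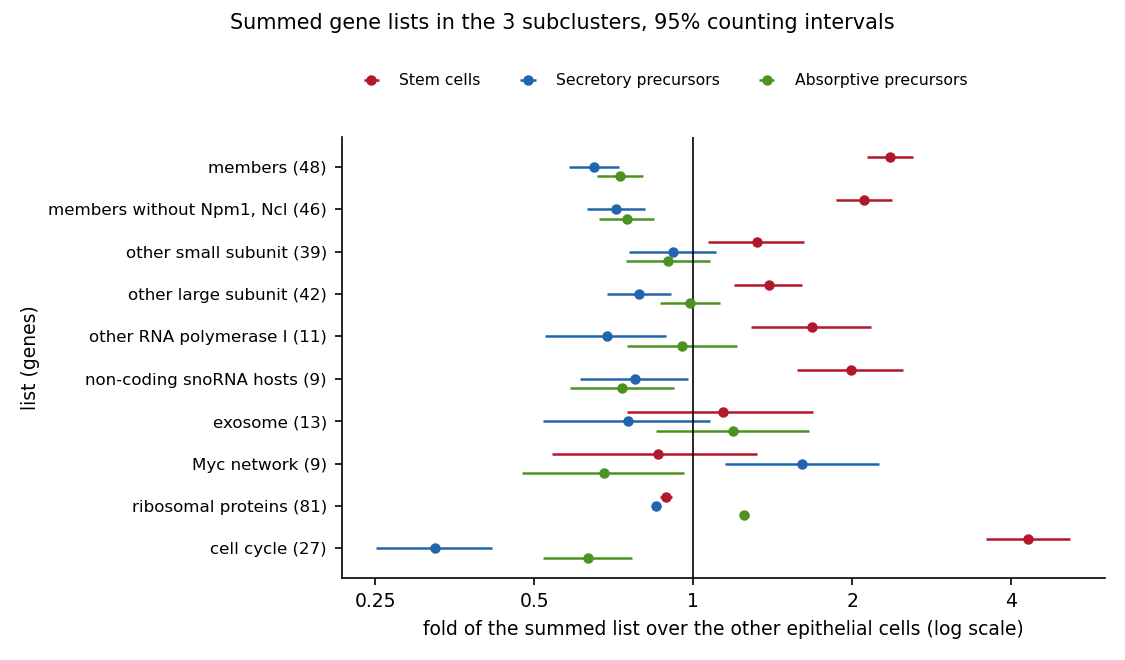
Fold of summed gene lists in each epithelial subcluster over the other epithelial cells (x axis, log scale), with 95% counting intervals and the number of genes in parentheses. In stem cells the members stand at 2.36 and the cell cycle list at 4.30, while ribosomal proteins lie below 1 at 0.887.

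Cell cycle genes, like the members, were highest in stem cells, but the lists differed in the precursors. The 27 cell cycle genes were at 3606, 598 and 1041 CPM, a fold of 4.30 (3.59 to 5.17) in stem cells. Over the lymphocytes outside the subclusters, absorptive precursors stood at 1.54 (1.26 to 1.86) for this list and at 0.807 for the members. Secretory precursors stood at 0.883 (0.681 to 1.13) for this list and at 0.729 for the members. The 28 stem cells with a cell cycle UMI held the members at 9301 CPM (8578 to 10069), and the 4 without, which were shallower (median 721 against 1080.5 UMIs), at 4911 CPM (2861 to 7862). The median share per cell was 1.00% and 0.487%. In secretory precursors the order of the sums was opposite, with 3243 CPM in the 13 cells with a cell cycle UMI and 4264 CPM in the 19 without. There the median share per cell went the other way, 0.422% against 0.308%, and the cells with such a UMI were deeper (median 4397 against 1558 UMIs). Absorptive precursors were at 4085 CPM in 27 cells with a cell cycle UMI and 3631 CPM in 15 without. Their median shares, 0.352% and 0.393%, were in the other order, and their median depths were 3434 and 1018 UMIs. The part of cycling cells in the difference between subclusters was not tested.

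Myc, whose protein binds the sequence CACGTG (the E-box) together with Max and activates many genes of ribosome assembly, was sparse, with 5, 5 and 1 UMIs in stem cells, secretory and absorptive precursors. Of the 5 genes with at least 10 UMIs in its list (the Myc network, 9 genes), Myc was the 1 at least 2-fold higher in stem cells (20%, all genes 18%). The list as a whole was at 377, 560 and 336 CPM, highest in secretory precursors. The E-box reads the same on both strands. It occurs in 8 of 47 RefSeq promoter windows of the members (17.0%, 43 of the 48 having a window, each from 250 bases before to 50 after the start of the gene on GRCm38.p6), against 7.15% of all 32851 windows and 10.7% of the windows of genes with at least 10 UMIs in the subclusters. The stretches around it in 4 members are shown, with the E-box in capitals, on the strand of the gene, chosen as the 2 before the start and 2 past it. They lie at chr1:34439681-34439740 (Imp4), chr6:125131796-125131855 (Nop2), chr17:71616220-71616249 (Wdr43) and chr11:3963965-3963994 (Pes1), all on the plus strand. The E-box starts 121 and 60 bases before the annotated start in Imp4 and Nop2, and 17 and 2 bases past it in Wdr43 and Pes1.
Imp4: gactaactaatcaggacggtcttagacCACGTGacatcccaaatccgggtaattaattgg
Nop2: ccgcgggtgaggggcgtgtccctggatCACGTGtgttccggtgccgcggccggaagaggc
Wdr43: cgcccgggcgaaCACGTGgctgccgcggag
Pes1: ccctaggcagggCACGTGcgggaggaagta

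The other 4 members with an E-box in the window are Utp20, Mybbp1a, Tsr1 and Nle1. Of the 7 with at least 10 UMIs, 3 were at least 2-fold higher in stem cells (Wdr43, Pes1 and Mybbp1a), with a median fold of 1.52. Of the 22 members with a window, no E-box and at least 10 UMIs, 13 were, with a median of 2.29.

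Across the 4 clusters of all assigned cells, the summed level hardly differed. It was 5083 CPM (4806 to 5371) in Epithelial Pigr+ cells, 5009 CPM (4731 to 5299) in nIELs, 4699 CPM (4450 to 4958) in iIELs and 5201 CPM (4703 to 5738) in B cells. The folds over the other assigned cells were 1.04 (0.973 to 1.11), 1.02 (0.952 to 1.09), 0.927 (0.868 to 0.990) and 1.06 (0.951 to 1.17). The epithelial value averages stem cells with precursors, which lie on both sides of it. The iIEL cluster held 2741 UMIs of the 8 epithelial markers, against 73 in nIELs, and without the subcluster cells labelled IELs, a setting chosen after seeing the data, its fold was 0.963. Of the 45 members with at least 10 UMIs over the assigned cells, 3 were at least 2-fold higher and 2 lower in Epithelial Pigr+ cells, against 21.8% and 22.8% of 9022 genes. In nIELs 6 were higher and 4 lower (all genes 12.2% and 22.1%), and in iIELs 1 was higher and 6 lower (6.25% and 11.7%). B cells had 6 higher and 3 lower (12.9% and 13.7%).

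Of the 37 members with at least 20 UMIs over these cells, 14 (37.8%) reached 2-fold up or down in some cluster, a smaller share than the 63.8% of all genes with that many UMIs. Utp20 was highest in Epithelial Pigr+ cells, at 101 CPM against 4.12 CPM in nIELs and 45.8 CPM in iIELs, with 0 of its 39 UMIs in B cells, where a count of 0 allows up to 39.1 CPM. All 13 of its iIEL UMIs lie in cells that the other list places in an epithelial subcluster, so 38 of the 39 are in subcluster cells. Its fold in Epithelial Pigr+ cells was 4.34 (2.17 to 9.03), and it ran from 2.48 in set X2 to 50.5 without the subcluster cells labelled IELs and 55.7 without mixed cells. In nIELs the fold was 0.0660 (0.00163 to 0.391). Nop58 was lowest in nIELs, with 387 CPM in Epithelial Pigr+ cells, 152 in nIELs, 278 in iIELs and 326 in B cells, a fold of 0.464 (0.318 to 0.662) in nIELs, which was 0.220 in set X2. Gnl3 was highest in B cells (182.5 CPM) and lowest in nIELs (32.95 CPM), with folds of 2.89 (1.47 to 5.31) and 0.365 (0.150 to 0.771).

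Ebna1bp2 went the other way, at 124 CPM in nIELs against 44.3 CPM in Epithelial Pigr+ cells, 70.4 CPM in iIELs and 26.1 CPM in B cells, a fold of 2.28 (1.34 to 3.86) in nIELs. Rrp15 was low in Epithelial Pigr+ cells, with 2 of 27 UMIs and a fold of 0.194 (0.0223 to 0.780), and Mrto4 in iIELs, with 2 of 27 UMIs and a fold of 0.160 (0.0184 to 0.641). Nob1, the nuclease that makes the final cut of small subunit RNA, was also low in iIELs, at 0.333 (0.0840 to 0.969). The remaining folds of 2 or more, up or down, have intervals that hold 1: Wdr75, Nob1 and Rrp15 higher in nIELs, Nob1, Noc2l and Nip7 higher in B cells, Mybbp1a, Tsr1 and Ebna1bp2 lower in B cells, Nop16 lower in iIELs and Rrp1b lower in Epithelial Pigr+ cells.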

How the data were processed

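Sorted Tcf4 Lin- and MIX colon cells were profiled by Drop-seq. The deposited values are whole UMI counts without normalization, which the authors made with the McCarroll pipeline, in 1 matrix of 1117 barcodes. The labels name STAR (2.5.0), Picard (1.137) and, as builds, mm10 together with hg19. Annotation, strand setting and the treatment of multi-mapped reads are not given in the sources used here.

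Barcodes were joined to the study's cluster and subcluster lists. Levels are summed UMIs per 1000000 of the group (CPM) with exact Poisson 95% intervals, and folds compare a group with the other cells of its list, with an exact binomial (Clopper-Pearson) interval. Where a group had 0 UMIs, 3 stood in for the upper limit. Assigned cells held 504 to 23205 UMIs. The members and lists were chosen with earlier results of these data known. Members with at least 20 UMIs are given in full, folds of 2 are counted over those with at least 10, and other lists name genes with at least 20 UMIs and a fold of 2 either way. Myc, Rpsa and the members named below 20 UMIs were named after their values were seen. No doublet caller was run. One alternative leaves out mixed cells: epithelial cells with at least 5 UMIs of lymphocyte markers and lymphocytes with at least 5 of epithelial markers. The partition without the members took the 1000 most variable genes, reduced them to 5 components and ran k-means (50 starts). Further alternatives were each barcode set, barcodes 1 base apart joined, cells thinned over 100 draws, other minimums and other denominators. The computation was tested on simulated data. Tools were Python 3.11.15 with numpy 2.4.6, scipy 1.17.1, pandas 2.3.3, scanpy 1.11.5, scikit-learn 1.9.0 and matplotlib 3.10.9. Gene positions and promoters are from RefSeq GRCm38.p6. Some genes are not reported here.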

Additional observations from a re-analysis of the deposited data

Results flagged for a closer look

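Members were also found in the 601 barcodes that the study put in no cluster. They gave 584 member UMIs of 171737, or 3401 CPM (3130 to 3688), above the 17.5 CPM that a count of 0 would allow, and 266 of the barcodes held at least 1. The barcodes are shallow, with a median of 212 UMIs, and 36.8% of what they hold is mitochondrial, beside 3.83% for cells in a cluster. Their member level was near that of the secretory precursors (3637 CPM) and below that of each of the 4 clusters. These levels count mitochondrial UMIs in the total, which lowers them most in the unassigned barcodes. Secretory precursors held 4.91% mitochondrial UMIs, and the 4 clusters 2.21% to 5.96%. The order given above therefore need not hold without mitochondrial UMIs, and that order was not computed.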

How the results depend on the processing

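No paired analysis was possible because both pools carry 1 label, lie in 1 matrix and are not mapped to the barcode sets. No test, and so no call, depends on a setting here, and with 1 sample the intervals do not cover differences between animals. Few UMIs limit most single genes, and stem cells, the shallowest subcluster, hold 627 member UMIs.

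Over 16 alternatives the stem cell fold of the sum ranged from 1.502 to 3.13, and 15 were at least 2. Those outside the interval of the reported value were 3.13 in set X1, 1.502 in X2, 2.05 in X2 without barcodes over 10000 UMIs (chosen after seeing the data), 2.67 without such barcodes in both sets, 2.75 in cells that both lists call epithelial, 2.12 in the partition made without the members, 2.01 without Ncl, 2.10 without Npm1 and Ncl, and 2.85 without the cell with the most member UMIs on each side. The secretory fold was 0.729 in that partition, 0.729 without Ncl and 0.393 in X2 without the deep barcodes. The absorptive fold was 0.608 as a mean over cells, 0.622 without deep barcodes, 0.655 without mixed cells and 0.618 after thinning. Epithelial Pigr+ cells were at 1.21 as a mean over cells, 0.932 in X1, 1.304 in X2, 1.13 without Npm1 and Ncl and 1.15 after thinning. In X2, nIELs were at 0.831 and B cells at 0.595. The number of members at least 2-fold higher in stem cells was 6 of 18 in X2, and 26 of 48 with no minimum. Leaving the subcluster cells labelled IELs out of the 4 clusters was also tried after seeing the data.

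Of 458 alternative values of roles and named members, 425 stayed within the counting interval. Among those at least 2-fold up or down, 6 turned: in stem cells Fbl (0.918) and Imp3 (0.787) in X2, and Ebna1bp2 in X1 (1.29) and in cells both lists call epithelial (1.13); in B cells Tsr1 in X2 (3.00) and Nip7 as a mean over cells (0.877). The other 27 fell outside the interval, among them the large subunit factors, which turned to 0.832 in X2. The cause was not tested.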
